A study of Oryza sativa Indica Group with 4 samples.

Results

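Photorespiration recycles the 2-phosphoglycolate that Rubisco forms when it takes up oxygen in place of carbon dioxide. In the chloroplast, phosphoglycolate phosphatase (PGLP) releases glycolate, which glycolate oxidases (GOX) of the peroxisome turn into glyoxylate and then, by transamination, glycine is formed. In the mitochondrion the glycine decarboxylase complex (GDC) and serine hydroxymethyltransferase (SHMT) convert glycine into serine with the release of carbon dioxide and ammonium, and in the peroxisome serine-glyoxylate aminotransferase (SGAT) and hydroxypyruvate reductase (HPR) carry the carbon on towards glycerate. The cycle is among the busiest pathways of a C3 leaf such as that of rice, and oxygenation by Rubisco is known to gain on carboxylation as leaves get warmer. Here the transcripts of 10 loci that encode these enzymes were followed, out of 28458 loci that had a read. The loci were chosen by function, though with earlier results of these data known. They were 1 PGLP, 3 GOX, the P, H and T proteins of GDC, and 1 locus each for SHMT, SGAT and HPR. All 10 had reads in every library, on 20 transcript models.

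Leaf blades of the fourth leaf were taken from 22-day-old seedlings of the indica variety Zhongxian 3037 and of togr1-1 (tog in the library titles). The line togr1-1 is a spontaneous recessive mutant of that variety with a glycine-to-valine substitution in the nucleolar DEAD-box RNA helicase TOGR1. Seedlings had been kept at 25 or 30 °C for the last 18 days, and blades were pooled to 100 mg for each of the 4 combinations of genotype and temperature. Each pool gave 1 library, so no difference below has a replicate check, and every test on reads compares libraries and not conditions. A single allele stands for the mutant. The study sequenced these leaves to learn how the transcriptome fares when rRNA biogenesis is disturbed.

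The libraries held between 11959859 and 12371522 counted reads, and between 24241 and 24714 loci with a read. Levels are given as RPKM, reads scaled for transcript length and for the reads of the library, summed over the transcript models of a locus, and this is the scale on which different genes are compared. Differences between libraries are log2 ratios of reads scaled by the library totals, with 1 read added, and with 95% Clopper-Pearson intervals that cover counting error only. A locus was counted as changed when a two-sided exact binomial test on its reads, adjusted over all loci with a read in the pair, gave an adjusted p of at most 0.001 and the scaled reads differed at least 2-fold. The verbs rose and fell are kept for such loci. In pooled blades, fewer cells of a type and less RNA per cell cannot be told apart. The files pair no locus with a gene name, so the tissue label was not checked against markers.

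The levels of the 10 loci lay between 1.02 and 1363 RPKM, and 6 of the 10 had the same rank in every library. PGLP was the most abundant. In the wild type it had 869 RPKM at 25 °C and 870 at 30 °C, and in togr1-1 it had 1363 and 961. It ranked between 47 and 74 among all loci and was highest in togr1-1 at 25 °C. GDC-T, the aminomethyltransferase that hands the one-carbon unit of glycine to tetrahydrofolate, came next with 578, 415, 643 and 551 RPKM in the same order of libraries. GDC-H, the small lipoyl protein that shuttles the aminomethyl group between the other subunits, had 381, 152, 441 and 279 RPKM. The wild type at 30 °C had the lowest level of both.

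GDC-P, the pyridoxal phosphate enzyme that decarboxylates glycine, had 186, 185, 118 and 206 RPKM, lowest in togr1-1 at 25 °C. The glycolate oxidase LOC_Os03g57220 had 176, 189, 113 and 178 RPKM and was lowest in the same library. GDC-P and this oxidase were neighbours in the order, and their ratio in RPKM (oxidase over GDC-P) included 1 within counting error in the wild type at 30 °C (1.02, interval 0.983 to 1.06) and in the cooler togr1-1 library (0.958, 0.915 to 1.0031). The second oxidase, LOC_Os07g05820, had 116, 99.3, 121 and 132 RPKM. It thus varied least of the 10 loci, by 1.33-fold between its highest and its lowest library.

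SHMT, which joins the one-carbon unit to a further glycine to give serine, had 36.0, 48.5, 32.4 and 67.1 RPKM. SGAT had 18.8, 27.1, 26.6 and 22.8 RPKM, and HPR had 5.04, 11.2, 9.38 and 9.31. In each library these 3 loci lay below all the loci of earlier steps except the third oxidase. The lowest level was that of the third oxidase, LOC_Os04g53210, with 19, 38, 39 and 22 reads or 1.02, 2.07, 2.06 and 1.19 RPKM. Glycolate oxidases are alike in sequence, and how the counting shared reads between such copies is not known, so its level is uncertain. The SGAT locus had 478, 670, 658 and 559 reads, nearly all on transcript models 3 and 4, and the HPR locus had 183, 397, 343 and 335 reads, of which model 1 held 85.6% over the libraries. The counts of SGAT cover models 2, 3 and 4 and those of HPR models 1, 3 and 4, and any other model of these loci was not analysed here. Both enzymes are usually abundant in green leaves. Whether these counts leave out part of their transcripts was not tested, and their low place in the order is uncertain. How reads that fit several models were assigned is not given in the sources used here, which bears on the levels of loci with more than 1 model.

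**Figure D1:**
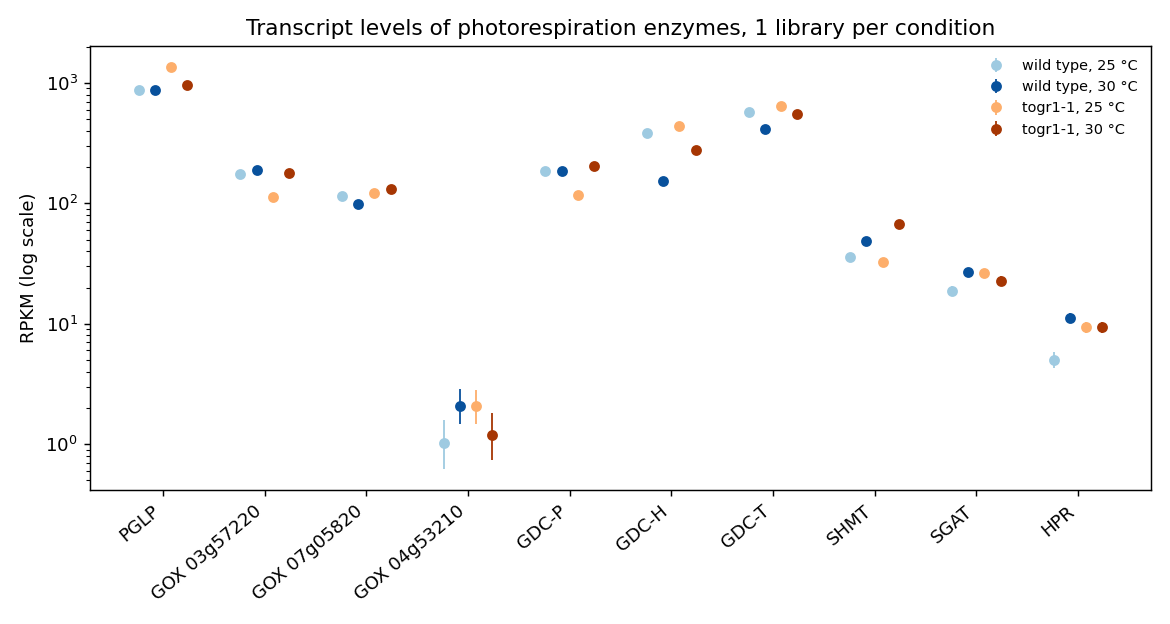
RPKM on a log scale for each of the 10 loci in the 4 libraries, with one point per library and bars for 95% Poisson counting intervals, most of them smaller than the points. PGLP lies at the top with 869 to 1363 RPKM, and the oxidase LOC_Os04g53210 at the bottom with 1.02 to 2.07.

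Together the 10 loci took 0.392% of the reads of the wild type at 25 °C (exact 95% interval 0.389 to 0.396) and 0.351% at 30 °C (0.348 to 0.355). For togr1-1 the shares were 0.445% (0.441 to 0.448) and 0.4115% (0.408 to 0.415). The summed reads were thus a lower share at 30 °C in both genotypes, with log2 ratios of -0.16 (-0.18 to -0.14) in the wild type and -0.11 (-0.13 to -0.09) in togr1-1. PGLP alone held 32.5% to 44.9% of these reads. Without PGLP the log2 ratio was -0.24 (-0.27 to -0.22) in the wild type, whereas in togr1-1 it turned to 0.14 (0.12 to 0.17). The sum in togr1-1 therefore rests on 1 locus. In the wild type the summed reads went from 47925 to 42023, those of GDC-H from 4347 to 1698 and those of GDC-T from 10871 to 7643. The lower wild-type sum thus lay mostly in GDC-H and GDC-T, and was not shared by the set. The 3 GOX loci summed had a wild-type log2 ratio of -0.01 (-0.06 to 0.04) and one of 0.41 (0.36 to 0.46) in togr1-1. The 3 GDC loci summed had -0.39 (-0.42 to -0.36) and 0.04 (0.01 to 0.06).

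In the wild type, warmth was accompanied by a fall of GDC-H and a rise of HPR, while PGLP and GDC-P were at about the same level at 30 as at 25 °C. GDC-H fell from 4347 to 1698 reads (log2 ratio -1.32, interval -1.41 to -1.24, 2.51-fold lower). Its adjusted p in the exact binomial test was 1.26e-248. HPR, which reduces hydroxypyruvate to glycerate, rose from 183 to 397 reads (1.14, 0.89 to 1.41, 2.22-fold higher, adjusted p = 4.72e-19 in the same exact test). Thus 2 of 10 loci changed, 1 in each direction, against 9.09% of the 26435 loci tested (4.59% higher and 4.5% lower) and 9.32% of the 7357 loci with at least 1000 reads over the 4 libraries. With so few loci this count is not read as particular to the cycle. The median log2 ratio was 0.05 over the 10 loci and 0.03 over all loci tested.

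The other wild-type loci stayed under a 2-fold difference or failed the test. The log2 ratio of GDC-T was -0.48 (-0.52 to -0.44), from 10871 to 7643 reads, and so this subunit lay on the same side as GDC-H. SHMT had 0.43 (0.31 to 0.56), from 898 to 1186 reads, and SGAT 0.52 (0.35 to 0.69), from 478 to 670 reads. These 2 loci lay on the same side as HPR. The oxidases LOC_Os03g57220 and LOC_Os07g05820 had 0.10 (0.04 to 0.16) and -0.23 (-0.31 to -0.14). The third oxidase had 0.99 (0.20 to 1.91, adjusted p = 0.0316 in the exact test), an interval that shows how little 19 and 38 reads can tell. PGLP, with 15552 and 15246 reads, had 0.00 (-0.03 to 0.03), and GDC-P, with 8858 and 8631, had -0.01 (-0.05 to 0.04).

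To show how these values sit among the rest of the transcriptome, they were ranked among the same 7357 loci, of which the middle 90% had wild-type log2 ratios between -0.95 and 0.98. GDC-H lay at percentile 2.58 and HPR at percentile 96.6. GDC-T lay at percentile 13.9, SHMT at 77.5 and SGAT at 82.7, all within the middle 90%.

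In togr1-1, the locus that changed was SHMT, which rose from 820 to 1665 reads (log2 ratio 1.05, 0.93 to 1.17, 2.07-fold higher). Its adjusted p in the exact binomial test was 2.25e-67, and it lay at percentile 96.1 of the loci with at least 1000 reads. The rise is just past the 2-fold limit and was no longer so with TMM factors (0.97) or DESeq2 size factors (0.9955). This was 1 of 10 loci, against 7.87% of the 26456 loci tested (5.19% higher and 2.68% lower) and 7.06% of those with at least 1000 reads. The median log2 ratio was -0.11 over the 10 loci and 0.04 over all loci tested.

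Several loci of togr1-1 came close to the limit. GDC-P had a log2 ratio of 0.80 (0.76 to 0.85), from 5696 to 9758 reads, and the oxidase LOC_Os03g57220 had 0.65 (0.58 to 0.72), from 2731 to 4213 reads. Both had been at their lowest in togr1-1 at 25 °C. GDC-H had -0.66 (-0.72 to -0.60), from 5101 to 3168 reads, PGLP had -0.50 (-0.53 to -0.48), from 24696 to 17088 reads, and GDC-T had -0.22 (-0.26 to -0.19), from 12253 to 10297 reads. These 3 were at their highest in togr1-1 at 25 °C. The oxidase LOC_Os07g05820 had 0.13 (0.05 to 0.20), SGAT -0.21 (-0.37 to -0.04) and HPR -0.01 (-0.23 to 0.21). The oxidase LOC_Os04g53210 had -0.77 (-1.62 to -0.01) on 39 and 22 reads.

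**Figure D2:**
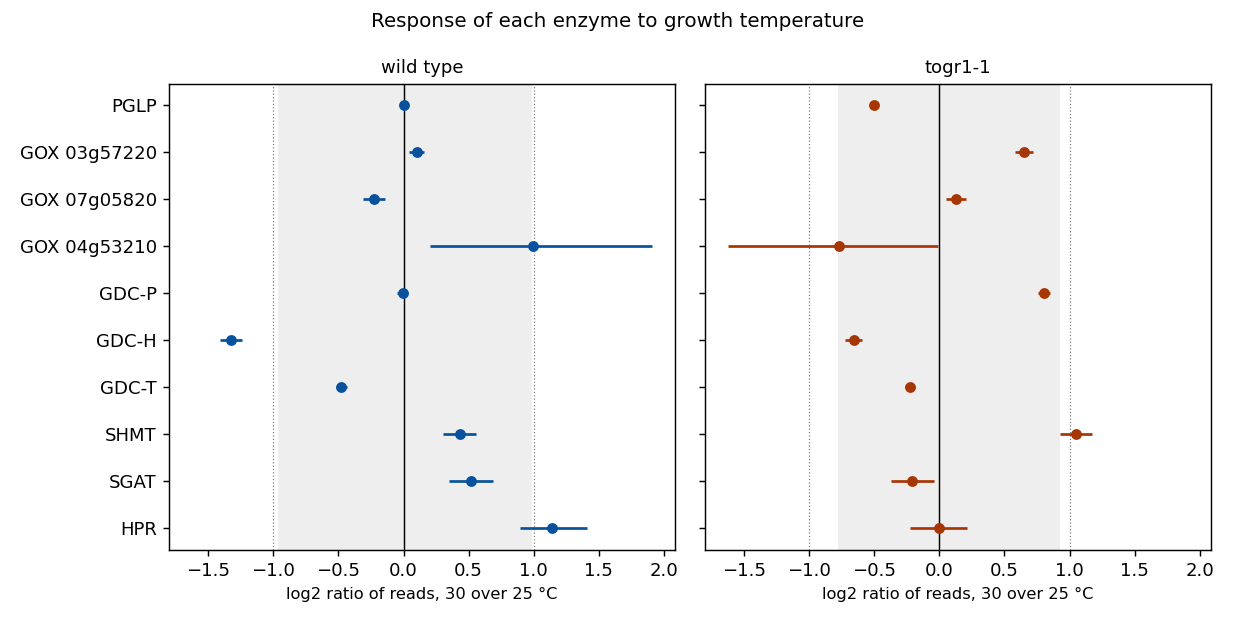
Log2 ratio of scaled reads, 30 over 25 °C, for each locus in the wild type (left) and in togr1-1 (right), with bars for 95% Clopper-Pearson counting intervals, dotted lines at 2-fold and a grey band that holds the middle 90% of the loci with at least 1000 reads (7357 on the left, 7356 on the right). GDC-H lies at -1.32 on the left and -0.66 on the right, and HPR at 1.14 and -0.01.

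No library serves in both temperature comparisons. In both genotypes SHMT and the oxidase LOC_Os03g57220 had intervals above 0 (2 of 10 loci, against 27.9% of the 7357 loci with at least 1000 reads), and GDC-H and GDC-T had intervals below 0 (2 of 10 against 17.5%). The oxidases LOC_Os07g05820 and LOC_Os04g53210 and SGAT had intervals on opposite sides of 0. These were 3 of 10 loci, against 11% of the 7357. LOC_Os04g53210 had too few reads to be one of those 7357. The remaining 3 of 10 loci, PGLP, GDC-P and HPR, had an interval that held 0 in one genotype. Of the 7357, 43.5% had an interval that held 0. This sorting and its shares are for scaling by library totals only. With TMM factors LOC_Os07g05820 in togr1-1 went to 0.050 and LOC_Os03g57220 in the wild type to 0.019. Their adjusted p in the exact binomial test was then 0.351 and 0.681. GDC-P in the wild type went to -0.087 (adjusted p = 0.000288 in the same test), opposite to its 0.73 in togr1-1. PGLP in the wild type went to -0.079, and had -0.58 in togr1-1.

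Whether the genotypes differed in response was put to Fisher's exact test, using all 4 libraries and the limits given above. HPR alone of the 10 loci passed, with a response lower in togr1-1 by 1.15 on the log2 scale (difference -1.15, 95% Wald interval -1.49 to -0.82, adjusted p = 1.75e-10 by Fisher's exact test). This was 1 of 10 loci against 5.35% of the 28458 loci tested (3.49% higher and 1.86% lower) and 6.69% of those with at least 1000 reads. Of the 4 libraries HPR was low in the wild type at 25 °C with 183 reads, and had 335 to 397 in the other 3. The difference thus rests on the 183 reads of that library.

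For the other loci the signed log2 ratio of togr1-1 minus that of the wild type is given. It was 0.81 (0.75 to 0.87) for GDC-P, 0.62 (0.44 to 0.79) for SHMT, 0.55 (0.46 to 0.65) for the oxidase LOC_Os03g57220 and 0.35 (0.24 to 0.47) for LOC_Os07g05820. It was also above 0 for GDC-H with 0.67 (0.56 to 0.77) and for GDC-T with 0.25 (0.20 to 0.31). These subunits had negative ratios in both genotypes, nearer to 0 in togr1-1. All 6 values lie below the 2-fold limit. On the other side were PGLP with -0.51 (-0.55 to -0.46), SGAT with -0.72 (-0.96 to -0.49) and the oxidase LOC_Os04g53210 with -1.77 (-2.92 to -0.73), whose adjusted p of 0.00599 in Fisher's exact test missed the limit. The middle 90% of loci with at least 1000 reads lay between -0.78 and 0.93.

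The subunits of GDC act as a complex. The P, H and T transcripts followed here were compared with each other inside each library, where the scaling of libraries has no part. The L protein of the complex is not among the loci followed. GDC-H per GDC-P in RPKM was 2.05 (1.98 to 2.13) in the wild type at 25 °C and 0.822 (0.780 to 0.866) at 30 °C. In togr1-1 it was 3.74 (3.60 to 3.88) at 25 °C and 1.36 (1.30 to 1.41) at 30 °C. The ratio was thus lower at 30 °C by 2.49-fold in the wild type (log2 change -1.32, 95% Wald interval -1.41 to -1.23) and by 2.76-fold in togr1-1 (-1.46, -1.54 to -1.38). The sizes were alike though reached in different ways, since GDC-P was level in the wild type and had 0.80 in togr1-1. GDC-T per GDC-P was 3.11 and 2.24 in the wild type, and 5.45 and 2.67 in togr1-1. GDC-H per GDC-T went from 0.659 to 0.366 in the wild type and from 0.686 to 0.507 in togr1-1. At 25 °C the genotypes did not differ in GDC-H per GDC-T beyond counting error (log2 difference 0.06, -0.01 to 0.13). SHMT, which works beside GDC, had 0.194, 0.262, 0.275 and 0.326 per GDC-P in the order of libraries used above.

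**Figure D3:**
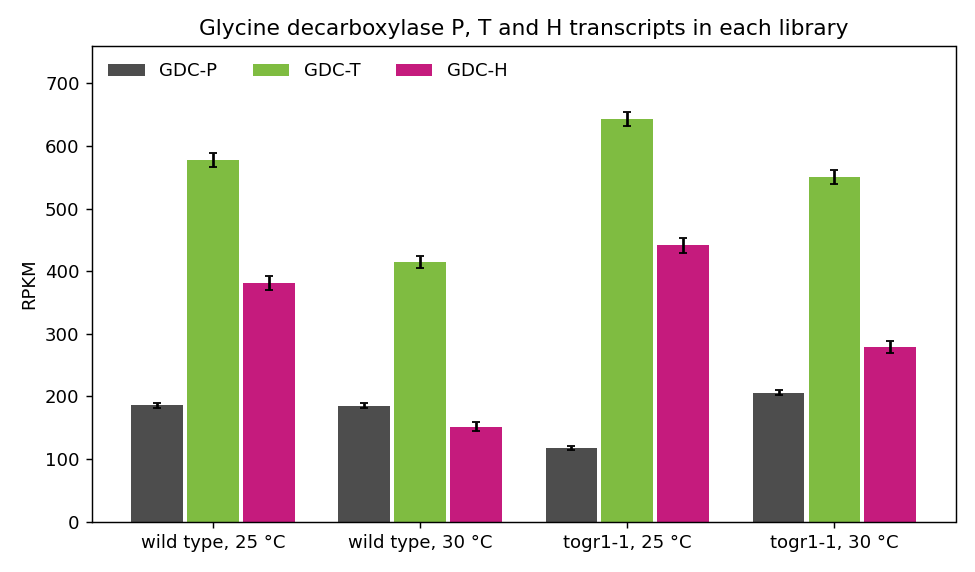
RPKM of the GDC-P, GDC-T and GDC-H transcripts in each library, as bars from 0 with 95% Poisson counting intervals. GDC-H stands above GDC-P in the wild type at 25 °C (381 against 186) and below it at 30 °C (152 against 185), and in togr1-1 it stands above GDC-P at both temperatures.

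Among the oxidases, the balance between the abundant loci also differed between the 25 °C and 30 °C libraries. LOC_Os03g57220 per LOC_Os07g05820 in RPKM was 1.52 (1.44 to 1.59) and 1.90 (1.80 to 2.0020) in the wild type, and 0.936 (0.887 to 0.987) and 1.35 (1.28 to 1.41) in togr1-1. It was higher at 30 °C in both genotypes, and lower in togr1-1 at both temperatures. PGLP per LOC_Os03g57220, the enzymes that make and use glycolate, was 4.94 and 4.61 in the wild type. In togr1-1 it was 12.0 at 25 °C and 5.40 at 30 °C, so that the library of togr1-1 at 25 °C stood apart from the others.

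The genotypes were then compared at each temperature, with the same libraries as above and so not as independent evidence. At 25 °C 0 of 10 loci reached the limits, against 4.7% of the 26499 loci tested (1.55% higher and 3.15% lower in togr1-1) and 3.62% of those with at least 1000 reads. At 30 °C it was 0 of 10 against 6.42% of 26435 loci (4.08% higher and 2.35% lower) and 4.51% of those with at least 1000 reads. By counting error alone, the intervals left out 0 for 9 loci at 25 °C and for 10 at 30 °C. The share of all loci with such an interval is not given here, so these numbers are not read as a result about the 10 loci. The median log2 ratio of togr1-1 over the wild type was 0.18 at 25 °C and 0.15 at 30 °C over the 10 loci, and -0.02 and -0.06 over all loci tested.

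At 25 °C, PGLP had a log2 ratio of togr1-1 over the wild type of 0.65 (0.62 to 0.68), at percentile 95.8 of the loci with at least 1000 reads. HPR had 0.88 (0.63 to 1.16), at percentile 98.6. GDC-P and the oxidase LOC_Os03g57220 lay on the other side with -0.65 (-0.70 to -0.61) and -0.64 (-0.71 to -0.57), at percentiles 8.07 and 8.51. SGAT had 0.44 (0.27 to 0.62), GDC-H 0.21 (0.15 to 0.27), GDC-T 0.15 (0.12 to 0.19), SHMT -0.15 (-0.29 to -0.01), LOC_Os07g05820 0.06 (-0.02 to 0.14) and LOC_Os04g53210 0.98 (0.19 to 1.89).

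At 30 °C the furthest locus was GDC-H with 0.88 (0.79 to 0.96), at percentile 96.3, on 1698 reads in the wild type and 3168 in togr1-1. SHMT had 0.47 (0.36 to 0.58), and GDC-T and the oxidase LOC_Os07g05820 both had 0.41. These 3 mitochondrial loci and this oxidase had more scaled reads in togr1-1. GDC-P had 0.16 (0.11 to 0.20) and PGLP 0.14 (0.11 to 0.17), smaller than their differences at 25 °C, and LOC_Os03g57220 had -0.09 (-0.15 to -0.02). SGAT and HPR had -0.28 (-0.45 to -0.12) and -0.27 (-0.48 to -0.05). The oxidase LOC_Os04g53210 had -0.78 (-1.64 to -0.02).

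**Figure D4:**
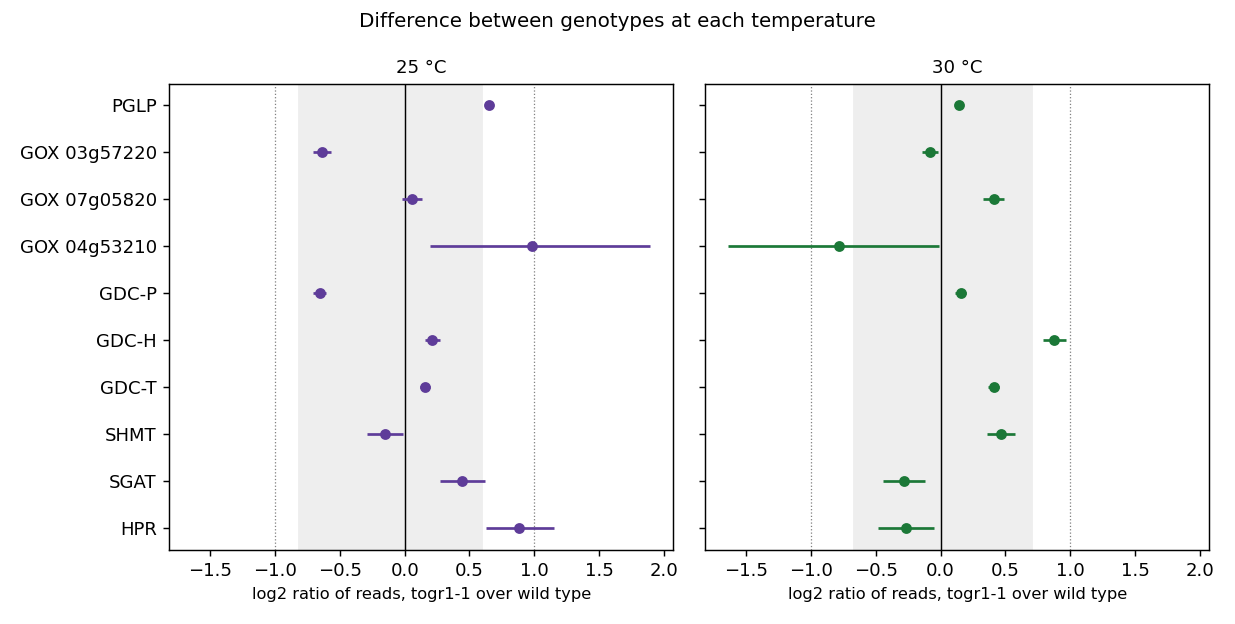
Log2 ratio of scaled reads, togr1-1 over wild type, for each locus at 25 °C (left) and 30 °C (right), with bars for 95% Clopper-Pearson counting intervals, dotted lines at 2-fold and a grey band for the middle 90% of the 7357 loci with at least 1000 reads. PGLP lies at 0.65 and 0.14, GDC-P at -0.65 and 0.16, and GDC-H at 0.21 and 0.88.

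Of the 7 loci with more than 1 transcript model, 4 had at least 96.7% of their reads over the libraries on a single one. In HPR model 1 held 85.6%, and in the oxidase LOC_Os04g53210 it held 81.4% on few reads. SGAT was more evenly divided. Model 3 (LOC_Os08g39300.3, 1704 bases) held 25.9% of the SGAT reads in the wild type at 25 °C (exact interval 22.1 to 30.1) and 28.5% at 30 °C (25.1 to 32.1). In togr1-1 it held 39.5% (35.8 to 43.4) and 34.9% (30.9 to 39.0). The share was higher in togr1-1, with intervals that do not overlap at 25 °C and do overlap at 30 °C. The reads of model 3 were 124 in the wild type and 260 in togr1-1 at 25 °C. Those of model 4 (LOC_Os08g39300.4, 2265 bases) were 349 and 396. The log2 ratio of togr1-1 over the wild type was thus 1.05 (0.74 to 1.37) for model 3. For model 4 it was 0.16 (-0.05 to 0.38). The SGAT locus value of 0.44 at 25 °C therefore lay mostly in model 3.

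A further list of 16 loci had been drawn up as candidates for the remaining steps of the cycle, but no source used here pairs them with a name, so no role is given. In the wild type 2 of the 16 rose and 1 fell (9.09% of all loci changed), and in togr1-1 it was 0 of 16 (7.87%). The median log2 ratio was 0.12 and 0.21, respectively, against 0.03 and 0.04 over all loci. Between the genotypes it was 0 of 16 at 25 °C (4.7% of all loci) and 1 of 16 at 30 °C (6.42%), a locus lower in togr1-1 (2.35%). The locus with most reads among those that changed was LOC_Os07g46460, which rose from 29907 to 60748 reads in the wild type (log2 ratio 1.05, 1.03 to 1.07) and had 0.80 (0.78 to 0.82) in togr1-1. LOC_Os12g33080 fell from 1481 to 631 reads in the wild type (-1.20, -1.34 to -1.06) and had -0.69 (-0.81 to -0.57) in togr1-1. LOC_Os01g22520, with 4 and 35 reads in the wild type, rose there (2.88, 1.68 to 5.11) and was the locus lower in togr1-1 at 30 °C (-2.19, -3.76 to -1.15).

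The calls rest on counting error alone. With an assumed coefficient of variation of 0.2 between libraries in edgeR's exact test, 0 of the 10 loci passed in any comparison of a pair of libraries. The adjusted p in that test was 0.0336 for GDC-H and 0.112 for HPR in the wild type, and 0.163 for SHMT in togr1-1. The share of all loci that passed it is not given here, so the 0 of 10 is not read as a result about these loci.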

How the data were processed

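Poly(A) RNA of 4 pooled leaf samples was sequenced on an Illumina instrument. The authors deposited raw counts of reads per transcript model, and RPKM values, in which counts are divided by the length of the model and by the total of the column. Recalculated RPKM differed from the deposited values by at most 3.91e-06. The aligner, genome build and annotation release are not given in the sources used here. The deposited log2 ratios, p-values and FDR values (an adjusted p, in a column of other values) are the authors' own comparisons of the temperatures and were not used.

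Models were summed by locus. Where the table of a genotype lacked a model, its reads there were set to 0. The RefSeq gene table (assembly ASM3414082v1) held 0 of the 28458 locus identifiers, hence enzyme names come from the list of loci and no sequence or position is given. The members and lists were chosen with earlier results of these data known. All 10 loci are named. From the list of 16, the loci that changed in any pair are named, and the 2 loci nearest to the mean profile.

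For each pair of libraries a two-sided exact conditional binomial test was used, with total reads as the expected proportion, and the responses by Fisher's exact test, both with Benjamini-Hochberg adjustment over all loci. Wald intervals were used for differences of log2 ratios. Reads are not independent molecules, so intervals cover counting error only. The tests were checked on simulated counts that held counting error only, so this check does not bear on variation between plants or libraries. Alternatives were TMM factors, DESeq2 size factors, totals without the 20 loci with most reads, a minimum of 10 reads, single models, RPKM, a 1.5-fold limit, a pseudocount of 0.5 read, and edgeR's exact test with an assumed coefficient of variation of 0.2 or 0.4. The sum without PGLP was added after seeing the data. In Fisher's test the scaling alters the fold only. Versions were Python 3.11.15, numpy 2.4.6, scipy 1.17.1, pandas 2.3.3, matplotlib 3.10.9, R 4.3.3, edgeR 4.0.16 and DESeq2 1.42.0.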

Additional observations from a re-analysis of the deposited data

Results flagged for a closer look

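For 4 of the 10 loci the temperature responses of the genotypes either passed both limits of Fisher's exact test or had counting intervals on opposite sides of 0, as did 8.07% of the 28458 loci and 14.7% of the 7357 loci with at least 1000 reads. The choice is not by size, since GDC-P (0.81), GDC-H (0.67), SHMT (0.62), the oxidase LOC_Os03g57220 (0.55) and PGLP (-0.51) differed by more than LOC_Os07g05820 and are not among them. For HPR (LOC_Os02g01150) the difference between the responses, togr1-1 minus wild type, was -1.15 on the log2 scale, and Fisher's exact test passed both limits. For SGAT (LOC_Os08g39300) it was -0.72 and for the oxidase LOC_Os07g05820 it was 0.35. Their adjusted p-values in Fisher's exact test were 3.02e-08 and 1.13e-08, with sizes under 2-fold. In togr1-1, SGAT model 4 alone had a log2 ratio of -0.12 (-0.33 to 0.09), an interval that held 0. The other well-read SGAT model had -0.39 (-0.66 to -0.11). With TMM factors LOC_Os07g05820 had 0.050 in togr1-1, with an adjusted p of 0.351 in the exact binomial test. The opposite sides of these loci thus depend on the processing. For the oxidase LOC_Os04g53210 the difference between the responses was -1.77 on 19 to 39 reads a library. Its adjusted p of 0.00599 in Fisher's exact test missed the limit. The difference was not tested across plants, since each condition has 1 library.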

How the results depend on the processing

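The number of loci that changed was 2 in the wild type, 1 in togr1-1, 0 and 0 between the genotypes, and 1 for the difference between the responses. With an assumed coefficient of variation of 0.2 or 0.4 in edgeR's exact test, 0 of the 10 loci passed for temperature in either genotype. How many of all loci passed that test is not given here, so this 0 is not read as particular to the set. TMM factors and DESeq2 size factors gave 0 in togr1-1. Among all 26456 loci tested there, 1170 were then called higher and 861 lower with TMM factors. With DESeq2 size factors the numbers were 1223 and 812, against 1373 and 708 in the main setting. A limit of 1.5-fold gave 4 in togr1-1 (14.2% of all loci tested), 4 between the genotypes at 25 °C (9.89%), 1 at 30 °C (10.8%) and 5 for the difference between the responses (9.12%). Single models and a minimum of 10 reads left the main counts of the 10 loci as they were.

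The log2 ratio of the summed reads was -0.16 in the wild type, and -0.24 with TMM factors, -0.24 with DESeq2 size factors, -0.21 without the 20 loci with most reads, -0.24 for RPKM and -0.24 without PGLP. In togr1-1 it was -0.11, and -0.19 with TMM factors, -0.16 with DESeq2 size factors, -0.25 for RPKM and 0.14 without PGLP. Between the genotypes at 25 °C it was 0.18, and 0.22 with TMM factors, 0.21 with DESeq2 size factors, 0.28 for RPKM and -0.11 without PGLP. At 30 °C it was 0.23, and 0.27 with TMM factors, 0.29 with DESeq2 size factors, 0.28 without the 20 loci, 0.27 for RPKM and 0.27 without PGLP. For the difference between the responses it was 0.05, and 0.081 with DESeq2 size factors, 0.094 without the 20 loci, -0.0100 for RPKM and 0.39 without PGLP. The cause of these shifts was not tested. RPKM gives short transcripts more weight by its construction, and PGLP holds the largest share of the reads.

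Of single loci, PGLP in the wild type went from 0.00 to -0.079 with TMM factors, -0.084 with DESeq2 size factors and -0.050 without the 20 loci, and HPR in togr1-1 from -0.01 to 0.0023 with model 1 alone. The oxidase LOC_Os03g57220 in the wild type went from 0.10 to 0.019 with TMM factors, 0.014 with DESeq2 size factors and 0.048 without the 20 loci. In togr1-1 LOC_Os07g05820 went from 0.13 to 0.050, 0.074 and 0.121 in the same order. The scalings moved the median log2 ratio of all loci by -0.09 to 0.06. No paired analysis was possible because each group has 1 library. Depth limits the oxidase LOC_Os04g53210 most, with 19 to 39 reads a library.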

Other observations

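The mean profile of the 10 loci over the 4 libraries, as log2 RPKM centred on each locus, was -0.14 at 25 °C and -0.02 at 30 °C for the wild type, and 0.07 and 0.09 for togr1-1. Single loci departed from it, with a Euclidean distance from 0.27 for the oxidase LOC_Os07g05820 to 1.20 for GDC-H. Among the 7357 loci with at least 1000 reads, those nearest to the mean profile were LOC_Os01g57570 at a distance of 0.02, with 3997, 4227, 4577 and 4630 reads, and LOC_Os09g38070 at 0.02, with 2713, 2903, 3221 and 3217 reads. With 4 libraries such likeness is a description of these values.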
